A study of Mus musculus with 6 samples.

Results

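The genes described here are 44 genes of homologous recombination, the Fanconi anemia pathway, checkpoint signaling and the repair routes next to them. They were chosen by symbol from the deposited expression table and all 44 were found among its 20405 genes. RNA of M0505 cells and of STOSE cells was hybridized to whole-transcript mouse microarrays (Affymetrix Mouse Gene 1.0 ST), 3 for each line. M0505 is a line of normal ovarian surface epithelial cells from FVB/N mice, and STOSE is the faster growing line that transformed from it spontaneously on prolonged passage. Neither line carried an engineered allele or received a treatment, and both were grown in the same medium for mouse ovarian surface epithelium. Each is a single cell line, so the 3 arrays are replicates of 1 culture history and their spread says nothing of other transformed lines. Karyotypes in the study showed aneuploidy in both, which limits M0505 as a normal control. Of 8 ovarian surface epithelium markers, all 8 lay above the array background in both lines. At a limma adjusted p under 0.05, 7 fell in STOSE cells, against 24.8% of all genes. Only *Krt7*, *Krt8* and *Krt19* also fell by at least 2-fold, against 7.59% of all genes. *Krt8* (log2 value 6.82 against 11.37 in M0505 cells) and *Krt19* (5.61 against 11.17) fell most.

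A DNA break can be copied from the sister chromatid by homologous recombination or rejoined directly by end joining. In homologous recombination the broken end is resected, a protein filament that BRCA2 helps to assemble forms on it, and RAD54 aids the invasion of the sister. The Fanconi pathway unhooks crosslinks between DNA strands by marking the FANCD2 and FANCI pair with ubiquitin, and the ATR and CHK1 kinases hold the cell cycle while forks are restarted. Many of these genes are transcribed mainly in S and G2 phase. In high-grade serous ovarian cancer, the disease that STOSE tumors resembled in the study, inherited loss of *BRCA1* or *BRCA2* is the best known defect in this group.

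STOSE cells had higher levels of most of the repair genes. With the thresholds of 0.05 for the limma adjusted p and 2 for the fold change, 10 of the 44 genes rose and none fell, whereas 4.9% of all genes passed in the upward direction and 7.59% in the downward direction. The 10 were *Exo1*, *Rad54l*, *Clspn*, *Fancl*, *Fancb*, *Fancm*, *Blm*, *Chek1*, *Fanca* and *Rad51c*. At the adjusted p alone 34 rose, against 31.6% of all genes, and 4 fell, against 24.8%. No choice of p or test could change the 0 falls at 2-fold, because the lowest log2 fold change of the 44 was −0.49. At an unadjusted limma p under 0.05 with no fold threshold, 5 of the 44 were lower, against 26.1% of all genes. The median log2 fold change was 0.59 over the 44 genes and 0.08 over all genes, with a range from −0.49 (*Lig4*) to 2.81 (*Exo1*). The 3 STOSE values all lay above the 3 M0505 values for 35 genes (37.6% of all genes) and all below for 5 (27% of all genes). The other 4, *Xrcc2*, *Rad52*, *Trp53bp1* and *Fancg*, had arrays that overlapped between the lines.

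**Figure D1:**
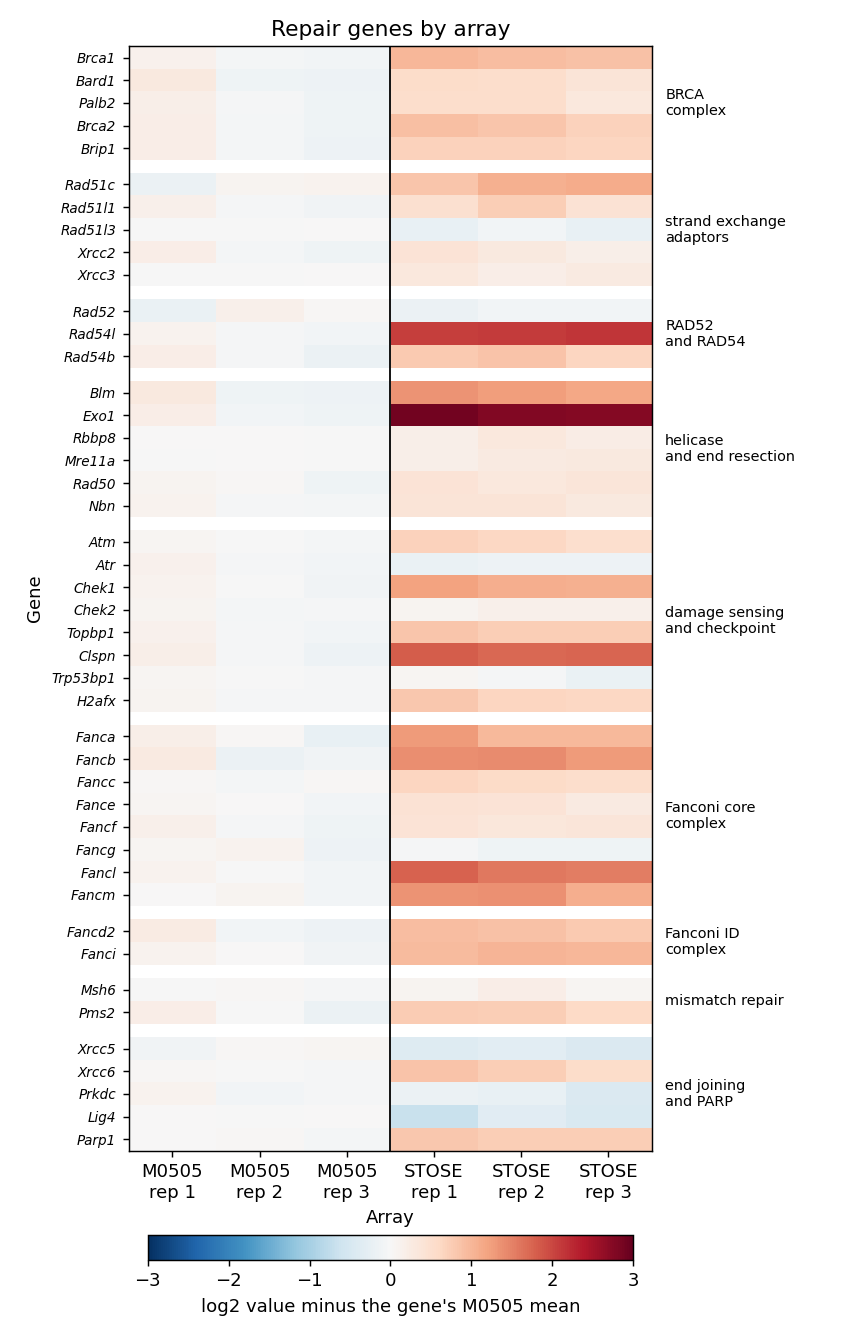
Heat map of the 44 repair genes (rows, by role) on the 6 arrays (columns), in which color gives the log2 value minus the gene's mean over the 3 M0505 arrays. The STOSE columns are red for most rows, deepest for *Exo1* and *Rad54l*, and blue for *Lig4*, *Xrcc5* and *Prkdc*.

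Values are log2 signals normalized by robust multi-array average (RMA), so 1 unit is a 2-fold difference, and levels are compared between the lines for 1 gene at a time and never between genes. The array background was taken as 4.74, the 95th percentile of the probe sets of olfactory receptor genes. None of the 44 genes had a line mean under it, the lowest being *Fancc* in M0505 cells at 4.79. Across the 44 genes the median SD between arrays was 0.10 in M0505 cells and 0.07 in STOSE cells. On an array of whole cultures, a change in the share of cells that make an RNA and a change in RNA per cell cannot be told apart. The normalization sets the zero of the scale. When each array was centered on its median over all genes, the log2 fold change of every gene moved by the same 0.20. The median over all genes went from 0.08 to 0.28, and the share of called genes that were higher went from 39.2% to 55.5%. The gap between the medians of the repair genes and of all genes stayed at 0.52. With that centering 14 of the 44 repair genes passed 2-fold upward, against 7.18% of all genes, and at the adjusted p alone 36 rose and 2 fell. A further quantile normalization gave 12 upward past 2-fold, against 5.63% of all genes. The counts at the adjusted p alone were again 36 and 2. For both scalings the share of all genes at the adjusted p alone was not counted, so these counts have no background beside them.

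To show sequence beside the values, the promoter windows of RefSeq (assembly GRCm38.p6) were matched to 34 of the 44 genes. Each window runs 300 bases, from 250 before the start of the gene to 50 after it. A gene was counted as holding a word when any of its windows did. No window was used for *Exo1*, *Fancd2*, *H2afx*, *Nbn*, *Prkdc*, *Rad50*, *Rad51l3*, *Rad54b*, *Rbbp8* and *Xrcc2*. Windows are shown for *Clspn* (chr4:126556730-126557029, plus strand) and *Fancm* (chr12:65075353-65075652, plus strand), which passed 2-fold and hold an E2F-like word, and for *Brca1* (chr11:101551906-101552205, minus strand), which holds one and lay just under 2-fold. *Rad54l* (chr4:116123640-116123939, minus strand) had the largest rise among genes with a window and *Xrcc5* (chr1:72307171-72307470, plus strand) fell, and neither holds an E2F-like word. All read 5′ to 3′ on the strand of the gene, and capitals mark an E2F-like word.
Clspn: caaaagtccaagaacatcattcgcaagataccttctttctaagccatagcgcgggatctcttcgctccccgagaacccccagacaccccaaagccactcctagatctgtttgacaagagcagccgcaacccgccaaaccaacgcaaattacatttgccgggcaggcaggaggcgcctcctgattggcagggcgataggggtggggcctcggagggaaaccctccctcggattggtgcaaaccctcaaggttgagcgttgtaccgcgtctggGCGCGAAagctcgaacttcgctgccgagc
Fancm: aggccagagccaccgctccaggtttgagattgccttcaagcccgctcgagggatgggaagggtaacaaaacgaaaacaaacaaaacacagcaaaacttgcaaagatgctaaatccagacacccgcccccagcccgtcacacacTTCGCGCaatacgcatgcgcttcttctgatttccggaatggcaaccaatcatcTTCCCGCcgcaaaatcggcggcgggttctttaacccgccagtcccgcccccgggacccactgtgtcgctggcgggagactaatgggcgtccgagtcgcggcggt
Brca1: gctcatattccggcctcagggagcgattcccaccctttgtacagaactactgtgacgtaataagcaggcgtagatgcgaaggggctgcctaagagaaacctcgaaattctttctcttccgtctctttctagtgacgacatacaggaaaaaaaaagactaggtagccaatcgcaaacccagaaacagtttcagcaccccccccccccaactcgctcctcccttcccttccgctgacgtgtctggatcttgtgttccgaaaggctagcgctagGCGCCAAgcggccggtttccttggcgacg
Rad54l: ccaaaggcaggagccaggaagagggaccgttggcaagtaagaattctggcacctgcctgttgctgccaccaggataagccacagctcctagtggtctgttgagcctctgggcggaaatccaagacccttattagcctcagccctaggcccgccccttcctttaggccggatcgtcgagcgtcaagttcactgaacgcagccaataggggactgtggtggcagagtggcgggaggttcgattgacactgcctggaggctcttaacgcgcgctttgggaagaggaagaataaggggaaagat
Xrcc5: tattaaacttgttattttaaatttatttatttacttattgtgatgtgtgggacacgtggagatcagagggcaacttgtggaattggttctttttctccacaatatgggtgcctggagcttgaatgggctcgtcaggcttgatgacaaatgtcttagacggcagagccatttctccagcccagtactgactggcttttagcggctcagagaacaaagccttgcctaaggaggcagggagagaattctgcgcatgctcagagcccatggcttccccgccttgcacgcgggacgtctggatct

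The E2F-like words are forms of the site that E2F transcription factors are known to bind at genes of S phase. The searched forms were TTCCCGC in the first place, then the form TTCGCGC with a central change, then the form TTGCCGC and lastly the form TTGGCGC, each on both strands. The reverse of the last form shares letters with CCAAT and can overlap it. At least 1 was found in 21 of the 34 genes with a window (61.8%), against 14.8% of the 15450 array genes with a window and 10.9% of all 27025 genes with one. In a list of DNA replication genes it was 12 of 18 (66.7%). Of the genes that passed 2-fold, 6 of the 9 with a window held one, and of those that did not, 15 of 25 did. The difference was not tested. *Clspn*, whose word begins at position 21 from the start site, and *Fancm*, with words beginning at positions −107 and −54, are examples among the genes that passed. *Lig4*, which fell, also holds one. CCAAT, the word of the NF-Y factor, was found in 21 of the 34 genes (61.8%) and in 42.1% of array genes, and in 77.8% of the replication genes and 93.3% of the mitosis genes with a window. The CHR words of G2/M genes, TTTGAA and its palindromic relative TTCGAA, searched on both strands, were found in 3 of the 34 (8.82%), in 19.1% of array genes and in 12 of 15 genes of a mitosis list. A match is only these letters in this window and not a bound site.

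The nuclease and strand exchange genes held the largest rises. *Exo1*, whose product is the nuclease that chews back the 5′ strand of a broken end, read 6.43, 6.15 and 6.09 on the M0505 arrays and 9.12, 9.00 and 8.98 on the STOSE arrays. The means were 6.22 ± 0.18 and 9.03 ± 0.07 (SD, n = 3 for each line), a 7.0-fold rise (2.81 on the log2 scale, with a standard error, SE, of 0.09, and a limma adjusted p = 1.02e-07), and it ranked 81 of 20405 genes by log2 fold change. The lines were separated by far more than the spread within either. *Rad54l*, a motor protein of strand invasion, read 6.65, 6.50 and 6.47 in M0505 cells and 8.62, 8.64 and 8.68 in STOSE cells. It rose 4.32-fold (2.11, SE 0.07, adjusted p = 7.27e-08) and ranked 164. Its relative *Rad54b* read 7.03, 6.78 and 6.64 against 7.60, 7.67 and 7.45, which is 1.69-fold (0.76, SE 0.10, adjusted p = 0.000334). *Rad52*, which anneals single strands, had overlapping arrays and a log2 difference of −0.12 (95% confidence interval −0.32 to 0.09, adjusted p = 0.307 from limma), and this difference was 0.08 after centering.

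*Blm*, the helicase that takes apart joined recombination intermediates, read 7.03, 6.59 and 6.57 in M0505 cells and 8.08, 7.98 and 7.89 in STOSE cells. It rose 2.38-fold (log2 change 1.25, SE 0.12, limma adjusted p = 4.27e-05), and M0505 replicate 1 stood above the other M0505 arrays. The other end resection genes rose far less. *Rbbp8*, the cofactor that starts resection, and the subunits of the nuclease complex that senses breaks, *Mre11a*, *Rad50* and *Nbn*, had log2 fold changes of 0.24, 0.25, 0.37 and 0.35, all past the adjusted p and with no overlap of arrays. All 6 genes of resection and unwinding therefore rose, with 2 past 2-fold and a median of 0.36. *Nbn* was 0.22 with its dimmer probe set.

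**Figure D2:**
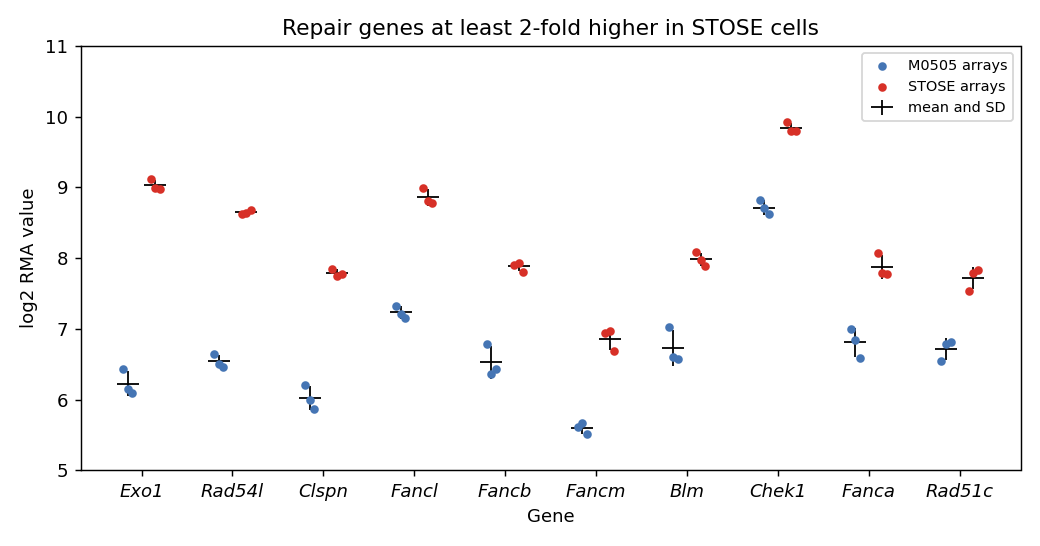
log2 RMA values of the 10 repair genes at least 2-fold higher in STOSE cells, by gene (horizontal axis), with 1 point per array and black bars for the mean and SD of each line (n = 3). The STOSE points lie above the M0505 points for every gene shown, farthest for *Exo1* and nearest for *Rad51c* (log2 fold change 1.00).

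All 5 genes of the BRCA group rose, each by less than 2-fold. *Brca1*, which with *Bard1* forms a ubiquitin ligase that directs breaks to recombination, read 7.53, 7.35 and 7.32 in M0505 cells and 8.40, 8.33 and 8.27 in STOSE cells. Its rise was 1.91-fold (log2 change 0.94, SE 0.07, limma adjusted p = 1.23e-05), and no arrays overlapped. *Brca2*, a mediator of filament assembly on resected ends, read 6.81, 6.55 and 6.50 against 7.51, 7.45 and 7.32. It rose 1.75-fold (0.81, SE 0.09, adjusted p = 0.000115). *Brip1*, a helicase partner of BRCA1, rose 1.60-fold, *Bard1* 1.41-fold and *Palb2*, the bridge between BRCA1 and BRCA2, 1.37-fold, so that all 5 passed the adjusted p and none passed 2-fold. After centering, *Brca1* (1.14) and *Brca2* (1.01) passed 2-fold, and *Brca1* (1.04) also did so after the further quantile normalization. The 3 probe sets of *Bard1* gave 0.38, 0.49 and 0.57.

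The 5 strand exchange adaptors, *Rad51c*, *Rad51l1*, *Rad51l3*, *Xrcc2* and *Xrcc3*, were divided. *Rad51c* read 6.54, 6.78 and 6.82 in M0505 cells and 7.54, 7.78 and 7.83 in STOSE cells, a rise of 2.00-fold (log2 change 1.00, SE 0.10, limma adjusted p = 5.33e-05). It sat on the 2-fold line, at 0.92 without M0505 replicate 1, 0.97 without STOSE replicate 2 and 0.95 without STOSE replicate 3. *Rad51l1* (*Rad51b* in RefSeq) read 5.34, 5.14 and 5.07 against 5.67, 5.92 and 5.63, which is 1.47-fold (adjusted p = 0.00154). *Xrcc3* (0.26) and *Xrcc2* (0.29, adjusted p = 0.0405) also passed upward. *Rad51l3* (*Rad51d*) read 7.81, 7.80 and 7.83 against 7.60, 7.73 and 7.60 and fell by 0.17 on the log2 scale (adjusted p = 0.0404), a direction that turned to 0.03 after centering and did not pass after the further quantile normalization (−0.05, adjusted p = 0.510).

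In the core complex, which attaches ubiquitin to the FANCD2 and FANCI pair, 7 of 8 genes passed the adjusted p upward and 4 passed 2-fold, with a median log2 fold change of 0.82. *Fancl*, the ubiquitin ligase of the complex, read 7.33, 7.22 and 7.15 in M0505 cells and 8.99, 8.81 and 8.78 in STOSE cells. It rose 3.08-fold (1.62, SE 0.08, adjusted p = 7.66e-07 from limma), but a second, dimmer probe set for *Fancl* gave 0.72, which is under 2-fold. *Fancb*, an X-linked subunit, read 6.79, 6.35 and 6.43 against 7.91, 7.94 and 7.81 and rose 2.57-fold (1.36, SE 0.11). *Fancm*, the translocase that brings the complex to DNA, read 5.61, 5.67 and 5.51 against 6.93, 6.97 and 6.68 and rose 2.40-fold (1.26, SE 0.09). For these 3 genes every STOSE array was above every M0505 array. *Fanca* read 6.99, 6.84 and 6.59 against 8.07, 7.78 and 7.77 and rose 2.10-fold (1.07, SE 0.12), which went under 2-fold without M0505 replicate 3 (0.96) or STOSE replicate 1 (0.97). *Fancc*, *Fance* and *Fancf* rose by 0.58, 0.37 and 0.37 on the log2 scale. *Fancg* had a log2 difference of −0.10 (95% confidence interval −0.28 to 0.09), and this was 0.10 after centering.

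The substrates of the core complex moved to the edge of 2-fold. *Fanci* read 7.01, 6.90 and 6.78 in M0505 cells and 7.84, 7.91 and 7.88 in STOSE cells, a rise of 1.98-fold (log2 change 0.99, SE 0.07, limma adjusted p = 7.02e-06). It passed 2-fold without M0505 replicate 1 (1.04), without STOSE replicate 1 (1.00), after centering (1.19) and after the further quantile normalization (1.13). *Fancd2* read 7.82, 7.48 and 7.41 against 8.50, 8.44 and 8.36 and rose 1.82-fold (0.86, SE 0.11, adjusted p = 0.000174), with 1.06 after centering. By log2 fold change *Rad51c* (1.00) and *Fanca* (1.07) were the members just inside 2-fold, and *Fanci* (0.99) and *Brca1* (0.94) those just outside.

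Among the 8 sensors and checkpoint genes 5 rose at the adjusted p, and *Atr*, *Chek2* and *Trp53bp1* did not pass it. *Clspn*, the adaptor that presents CHK1 to ATR, read 6.21, 5.99 and 5.87 in M0505 cells and 7.85, 7.75 and 7.77 in STOSE cells and rose 3.40-fold (log2 change 1.77, SE 0.09, limma adjusted p = 9.27e-07). *Chek1* read 8.82, 8.71 and 8.62 against 9.93, 9.80 and 9.79 and rose 2.18-fold (1.12, SE 0.07, adjusted p = 3.80e-06). Neither gene had overlapping arrays. *Topbp1*, the activator of ATR, rose 1.70-fold and *H2afx* (*H2ax* in RefSeq), the histone marked at breaks, rose 1.62-fold. *Atr* had a log2 difference of −0.17 (95% confidence interval −0.32 to −0.01, adjusted p = 0.0618 from limma), which was 0.03 after centering. In the other branch *Atm* rose 1.52-fold (0.61, SE 0.07), whereas its effector kinase *Chek2* differed by 0.13 (95% confidence interval −0.01 to 0.28, adjusted p = 0.0999). *Chek2* passed upward after centering (0.33, limma adjusted p = 0.00177) and after the further quantile normalization (0.23, adjusted p = 0.0205). *Trp53bp1*, which shields ends from resection, differed by −0.06 (95% confidence interval −0.24 to 0.12), or by 0.14 after centering.

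**Figure D3:**
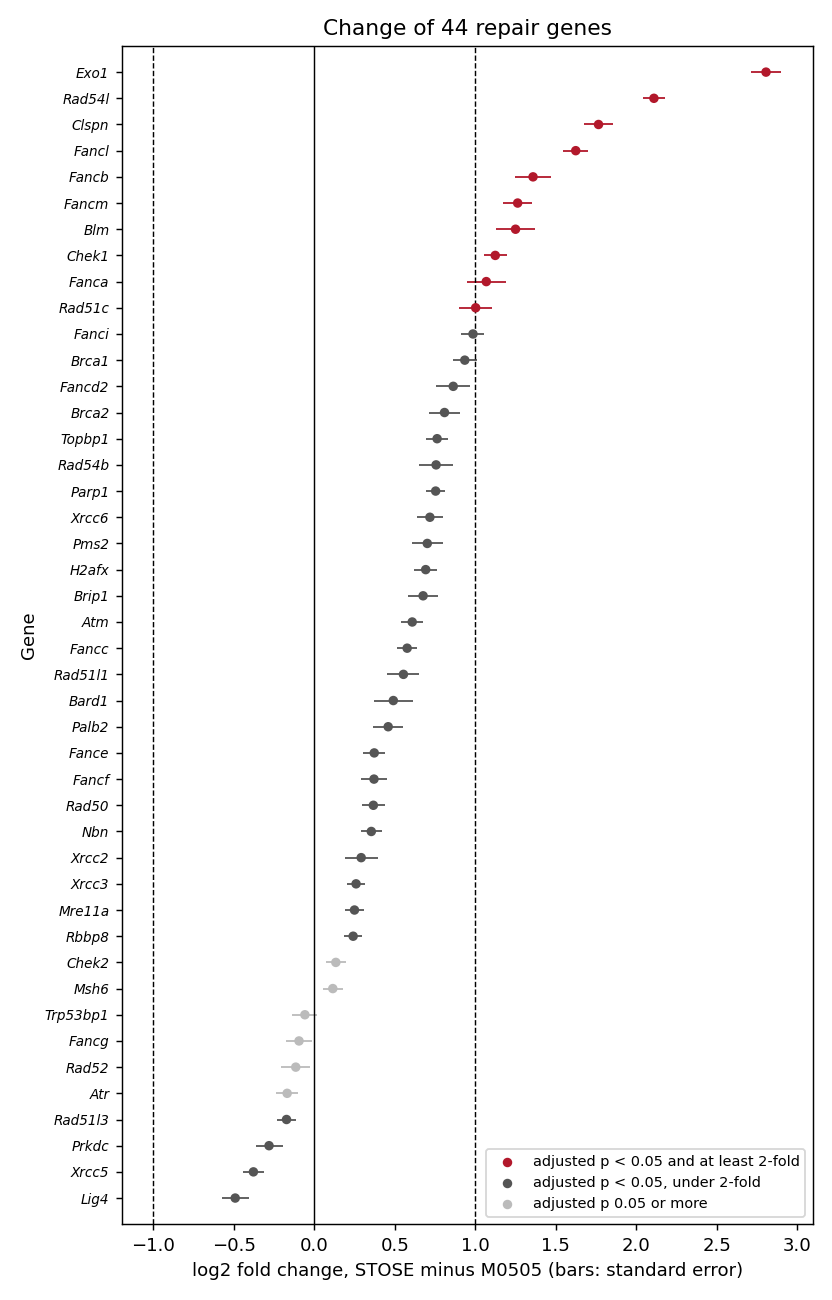
log2 fold change of STOSE against M0505 cells (horizontal axis) for each of the 44 repair genes (vertical axis), with bars of 1 standard error and dashed lines at 2-fold. The 10 red points lie past 2-fold on the right, none lies past it on the left, and the 4 genes that fell are *Lig4*, *Xrcc5*, *Prkdc* and *Rad51l3*, the last of which turned to 0.03 after centering.

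The end joining genes held 3 of the 4 falls. *Lig4*, the ligase that seals joined ends, read 8.21, 8.18 and 8.21 in M0505 cells and 7.53, 7.85 and 7.75 in STOSE cells and fell by 0.49 on the log2 scale (SE 0.09, adjusted p = 0.00126 from limma). *Xrcc5*, the larger Ku subunit, read 8.66, 8.79 and 8.81 against 8.37, 8.43 and 8.33 and fell by 0.38 (SE 0.07, adjusted p = 0.00123). For both, every STOSE array lay under every M0505 array. *Prkdc*, the kinase that Ku recruits, fell by 0.28 (SE 0.08, adjusted p = 0.0202). After centering *Lig4* (−0.29) and *Xrcc5* (−0.18) were smaller falls that still passed the adjusted p, and *Prkdc* (−0.08, limma adjusted p = 0.359) did not pass. After the further quantile normalization *Prkdc* was at −0.09 (adjusted p = 0.367). *Xrcc6*, the smaller Ku subunit, went the other way, at 6.96, 6.91 and 6.89 against 7.77, 7.67 and 7.48, a rise of 1.65-fold (0.72, SE 0.08, adjusted p = 9.96e-05). *Parp1*, which detects single-strand breaks, read 8.57, 8.59 and 8.50 against 9.36, 9.28 and 9.29 and rose 1.69-fold (0.75, SE 0.06, adjusted p = 1.02e-05). In mismatch repair *Pms2* read 7.70, 7.49 and 7.33 against 8.27, 8.25 and 8.12 and rose 1.63-fold (0.70, SE 0.10), whereas *Msh6* differed by 0.11 (95% confidence interval −0.03 to 0.26). *Msh6* passed upward after centering (0.31, limma adjusted p = 0.00161) and after the further quantile normalization (0.15, adjusted p = 0.0480).

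Further repair lists were read for comparison, with counts at the adjusted p and 2-fold. Of 25 other genes of recombination and crosslink repair, 7 rose and none fell, with a median log2 fold change of 0.19 and 11 up and 5 down at the adjusted p alone. The 6 largest rises were those of the resolvase *Gen1* (1.84), *Rpa2* (1.33) of the single-strand binding complex, *Eme1* (1.33), *Hells* (1.29), *Rad51ap1* (1.13) and *Mdc1* (1.07). Of 13 other checkpoint genes 3 rose, *Rfc3* (1.16), *Rfc5* (1.13) and *Rfc2* (1.00), all clamp loader subunits, and 12 rose at the adjusted p alone. Of 8 other end joining genes only *Polq* (1.32), of the alternative route, passed, and the median was −0.01. In base excision repair 2 of 15 rose, *Fen1* (1.49) and *Neil3* (1.05), and none of 19 nucleotide excision genes passed in either direction, with 10 up and 7 down at the adjusted p alone. Of 5 other mismatch repair genes *Mlh3* fell (−1.18). Of 7 translesion genes *Polh* (1.24) and *Mad2l2* (1.22) rose, and *Rev3l*, the catalytic subunit that *Mad2l2* pairs with, fell (−1.24). None of 13 p53 targets of the damage response but *Plk2* (2.12) rose at 2-fold, and *Sesn1* (−2.06), *Trp53inp1* (−2.01), *Btg2* (−1.27) and *Gadd45a* (−1.08) fell, while *Cdkn1a* differed by −0.06.

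**Figure D4:**
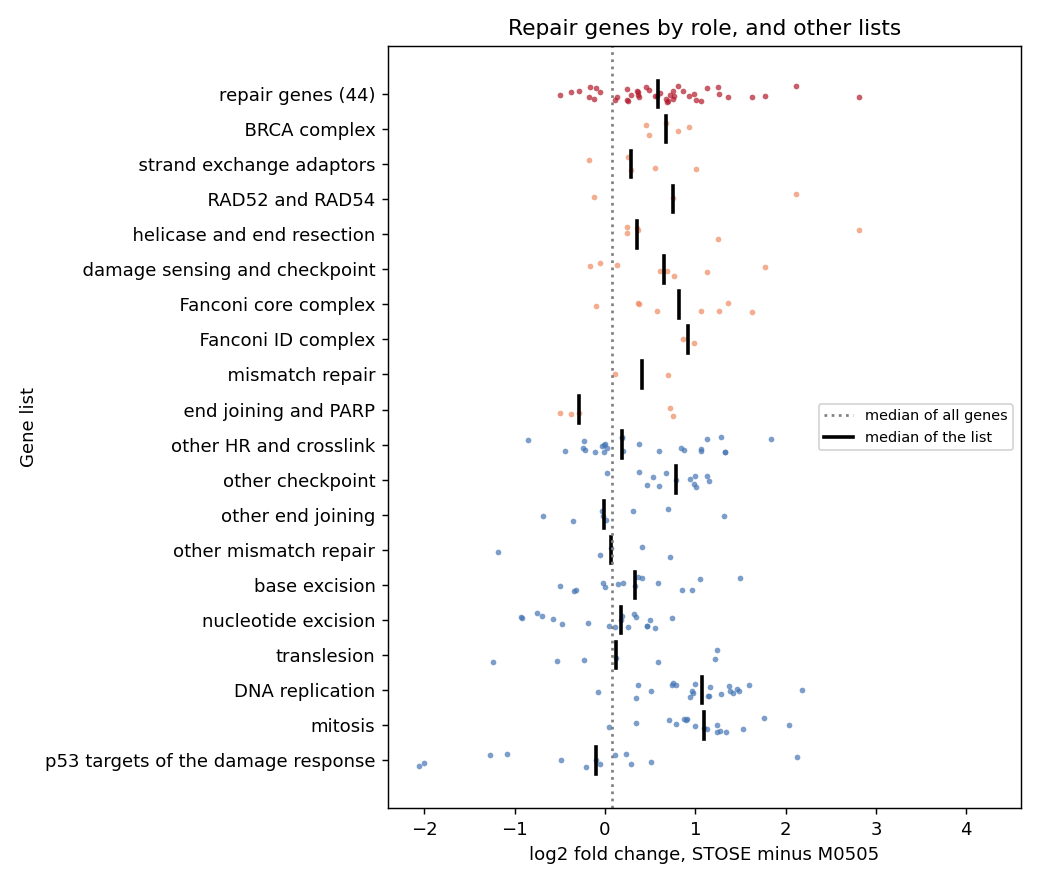
log2 fold change of STOSE against M0505 cells (horizontal axis) for the 44 repair genes, their role groups and other gene lists (vertical axis), with 1 point per gene and a black bar for each list's median; the dotted line is the median of all genes (0.08). The repair genes have a median of 0.59, the end joining and PARP group lies lowest among the role groups (−0.28), and the DNA replication (1.07) and mitosis (1.09) lists lie farther right.

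Genes of cell division moved with the repair genes. In a list of 22 DNA replication genes 11 rose at 2-fold, none fell and the median log2 fold change was 1.07. In the list of 17 mitosis genes 9 rose, none fell and the median was 1.09. The mean level of the replication list lay at 8.63 to 8.80 on the M0505 arrays and 9.70 to 9.76 on the STOSE arrays, that of the mitosis list at 8.96 to 9.23 and 10.13 to 10.15, and that of the 44 repair genes at 7.28 to 7.46 and 7.94 to 8.02. No list overlapped between the lines, and the part of division rate in the repair gene result was not tested. Both medians exceeded the 0.59 of the repair genes, and the difference between lists was not tested.

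The M0505 arrays did not all read alike. M0505 replicate 1 was the highest of its line for 32 of the 44 repair genes, against 36.5% of all genes, and STOSE replicate 1 for 27, against 40.9%. M0505 replicate 1 was also the highest of its line for 17 of the 17 mitosis genes and 18 of the 22 replication genes. STOSE replicate 1 was so for 4 and 12 of these. Without M0505 replicate 1 the median log2 fold change of the 44 genes was 0.64. In that setting 10 genes passed 2-fold upward, against 5.22% of all genes, with *Fanci* in and *Rad51c* out. Chromosomes were also compared, since both lines are aneuploid. The 44 genes lie on 16 chromosomes in RefSeq, whose median log2 fold changes over all their genes ran from 0.00 to 0.18. Subtracting them left 36 of the 44 genes above 0 and a median of 0.54, and of the 10 genes past 2-fold *Rad51c* (0.89) and *Fanca* (0.95) went under it.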

How the data were processed

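M0505 and STOSE cells were each profiled on 3 arrays (Affymetrix Mouse Gene 1.0 ST), labelled as biological replicates; no label says that these came from separate cultures, so p-values measure the spread between arrays. The authors deposited log2 values normalized by RMA, which corrects background, quantile normalizes across arrays and summarizes probe sets. Per the labels this was done with Affymetrix Expression Console, and its version, the annotation release and the genome build are not given in the sources used here. The table also holds the authors' line means and linear fold changes, which were not used. Of 28944 probe sets 23530 had a symbol, and the one with the highest mean over 6 arrays was kept for each of 20405 genes. An array has no read depth, and the number of arrays limits the precision.

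The lines were compared by limma (version 3.58.1, functions lmFit and eBayes, under R 4.3.3) with Benjamini-Hochberg adjustment over all genes. The smallest two-sided p of an exact permutation test on 3 against 3 arrays is 0.1. On simulated data for this comparison, 200 of 20405 genes were changed and 100% were recovered with 0 false calls. Every planted change was larger than 2-fold, so the simulation says nothing of genes near that line. RefSeq matched 97.5% of genes by symbol or synonym. Values are given on every array for genes past 2-fold, for the largest changes in each role group and for genes that an alternative carried past 2-fold. Other lists name called genes, at most 6 a list in each direction. The members, lists and tests were chosen with earlier results of these data known. Of the other lists, *Slx1b* and *Fan1* were not matched and a symbol of *Rad51c* was left out as a member, and 1 gene is not reported here. Alternatives covered scaling, dim genes, the choice of probe set, the test, the threshold, chromosome medians and each array in turn.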

Additional observations from a re-analysis of the deposited data

How the results depend on the processing

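The count of repair genes that passed followed the threshold, and so did the share of all genes. Of 44, 4 (*Exo1*, *Rad54l*, *Clspn* and *Fancl*) rose with limma's treat test against 2-fold, against 2.47% of all genes. At 1.5-fold 22 rose, against 11% of all genes. With no fold threshold 34 rose and 4 fell, against 31.6% and 24.8% of all genes. With chromosome medians subtracted, 8 rose, against 3.9% of all genes. Under the other alternatives 9 to 14 rose, against 4.68% to 7.6% of all genes. With any fold threshold 0 fell, against 4.87% to 14.1% of all genes. Alternatives of the test alone could not change that 0, since they keep the fold changes. Leaving out each array in turn gave 9 to 10 rises, against 4.68% to 5.22% of all genes, and 0 falls, against 7.39% to 7.8%. The median log2 fold change of the repair genes then ran from 0.57 to 0.64. The median was 0.67 after a further quantile normalization and 0.79 after centering. Small differences changed sign. After the further quantile normalization *Rad52* was at 0.0014, *Trp53bp1* at 0.0478 and *Fancg* at 0.0279. Centering, which added the same 0.20 to every gene, put *Rad51l3* at 0.0272, *Rad52* at 0.0846, *Atr* at 0.0311, *Trp53bp1* at 0.14 and *Fancg* at 0.10. *Trp53bp1* ran from −0.119 to 0.0102 on leaving out each array, and was above 0 without STOSE replicate 3. The cause of the sign changes other than those after centering was not tested. Without the dimmest 50% of genes 40 of the 44 were left. With the replicate number as a block 10 rose and 0 fell, against 4.91% and 7.59% of all genes. The block changed no call except that *Rad51l3* no longer passed at the adjusted p alone (limma adjusted p = 0.0519). Deviations of arrays with the same number correlated at 0.26, 0.04 and 0.25, and those of arrays with unlike numbers at −0.29 to 0.12. The values for replicates 1 and 3 were thus above that of every unlike pair. No label pairs the arrays, and the main comparison did not pair them. Of 5 granulosa, 5 leukocyte and 5 endothelial markers, 2 of each lay under background in both lines (*Fshr*, *Cyp19a1*, *Ptprc*, *Itgam*, *Pecam1* and *Emcn*). *Inha*, *Cd68* and *Kdr* were above it in M0505 cells and fell at 2-fold, and *Foxl2* and *Pecam1* fell at the adjusted p alone. *Cd14* (0.97), *Cd3e* (0.22), *Cdh5* (0.20) and *Amh* (0.27) rose at the adjusted p alone, and the median log2 fold changes of the lists were −0.13, 0.02 and 0.01. The mean of each list over the arrays ran from 5.83 to 5.88 in M0505 cells and 4.92 to 5.17 in STOSE cells for granulosa, 5.69 to 5.75 and 5.36 to 5.43 for leukocytes, and 5.33 to 5.42 and 4.29 to 4.34 for endothelium, and their part in the results was not tested.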
